A study of Mus musculus with 59 samples.

Results

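The genes described here encode the ionotropic and metabotropic glutamate receptors of mouse brain and the auxiliary subunits of AMPA receptors. They are 34 genes taken by name from the 54232 gene identifiers counted in each library: 4 AMPA receptor subunits (Gria1 to Gria4), 6 transmembrane AMPA receptor regulatory proteins or TARPs (Cacng2, Cacng3, Cacng4, Cacng5, Cacng7 and Cacng8), 6 other AMPA receptor auxiliary subunits (Cnih2, Cnih3, Gsg1l, Shisa6, Shisa7 and Shisa9), 5 kainate receptor subunits (Grik1 to Grik5), 7 NMDA receptor subunits (Grin1, Grin2a to Grin2d, Grin3a and Grin3b), the delta subunit Grid1 and 5 metabotropic receptors (Grm2, Grm3, Grm5, Grm7 and Grm8). All 34 were found, and all 34 passed the filter on low counts in each of the 5 regions. RNA sequencing of polyadenylated RNA had been carried out on 5 brain regions (cortex, striatum, hippocampus, brainstem and cerebellum) of C57BL/6 mice aged 10 weeks, in 59 libraries from 12 mice. The wild-type (WT) mice were WT-70 and WT-77, followed by WT-220 and WT-221. Mice of the genotype Atxn1 154Q/2Q, called 154Q here, were 154Q-69 and 154Q-71, followed by 154Q-75 and 154Q-76. They carry a knock-in CAG expansion in 1 allele of Atxn1, the gene mutated in spinocerebellar ataxia type 1 (SCA1). The Atxn1 154Q[V591A;S602D]/2Q mice (AXH-207, AXH-209, AXH-217 and AXH-218, called AXH here) carry the same expanded allele with V591A and S602D, changes in the AXH domain of ataxin-1 that disrupt its binding to the repressor capicua (CIC), and were made by genome editing of the 154Q allele. Both alleles are expressed from the endogenous Atxn1 locus in all cell types that use it, and the second allele of every mutant mouse is wild type. Each region had 4 mice per genotype, except the AXH brainstem with 3, which lacked AXH-217. Below, values listed for a genotype are in this order of mice.

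Glutamate is the main excitatory transmitter of the brain. AMPA receptors are tetramers that carry the fast synaptic current, and their auxiliary subunits set how many receptors reach the synapse and how fast they close: TARPs and the cornichons Cnih2 and Cnih3 slow desensitization and promote surface delivery, whereas Gsg1l is known as a negative regulator of AMPA receptor currents. NMDA receptors pair the obligatory subunit Grin1 with Grin2 or Grin3 subunits, kainate receptors pair Grik1, Grik2 or Grik3 with the high-affinity subunits Grik4 or Grik5, and metabotropic receptors signal through G proteins, with Grm2 and Grm3 as Gi-coupled group II receptors. In the cerebellum, parallel fibres release glutamate onto Purkinje cells, the neurons for which SCA1 is best known.

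Libraries held 28058359 to 112343574 read pairs counted on genes, with the striatum (28058359 to 54719126) and the cortex (34530406 to 46174761) at the lower end. Levels are given as CPM, the counts of a gene scaled to a library of 1e+06 counts, after TMM scaling within a region. For levels compared between regions in WT mice, TMM scaling was over all WT libraries together. For the percentages of region markers, Tbr1 and the summed striatal markers, it was over all libraries together. Several libraries stood apart before any comparison. The hippocampal library labelled 154Q-76 held brainstem markers at 55.1% of their WT brainstem level, against 0.0503 to 0.271% in the other 11 hippocampal libraries, and reads of both Xist and the Y-linked Ddx3y, so it was left out of the fits, leaving 3 hippocampal 154Q libraries. The cortical library labelled WT-221 held Xist at 470 CPM and Ddx3y at 0.897 CPM, unlike the other 4 regions of that mouse, and the deposited names of the cortical libraries 154Q-76 and AXH-207 were exchanged relative to their labels. These 3 were kept as labelled. The libraries labelled striatum held cortical markers: in 10 of 12, the median of 8 cortical marker genes was 61.3 to 88.4% of the WT cortex level, and the cortical transcription factor Tbr1 reached 93.2 to 128 CPM, against 116 to 138 CPM in cortex. The 2 exceptions, WT-220 (31.4%) and AXH-217 (23.7%), had the highest summed levels of 8 striatal markers (5747 and 3556 CPM, against 639 to 2497 CPM in the other 10). Xist marked 1 female in each mutant genotype (154Q-75 and AXH-217) and none among the WT mice apart from that cortical library.

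In WT mice, all 34 genes differed between regions, as did 91.6% of all 22200 genes tested (edgeR quasi-likelihood F test, adjusted p under 0.05), so the share is read as a description. Between genes, levels were compared as CPM per kb of exon (mean ± SD, 4 mice). Among the AMPA subunits, Gria1 was highest in hippocampus (193 ± 26), followed by cerebellum (122 ± 7.7), whereas Gria4 was highest in cerebellum (106 ± 6.7) and lowest in hippocampus (12.5 ± 2.2). Gria2, the subunit that keeps AMPA receptors impermeable to calcium, led in hippocampus (77.1 ± 7.7) and was lowest in brainstem (18.5 ± 1.3). Its steps from cortex to striatum and from striatum to cerebellum did not pass the test, whereas those from hippocampus to cortex and from cerebellum to brainstem did. Gria3 varied least of the 4, by 2.00-fold from cortex (26.4 ± 1.7) to brainstem (13.2 ± 0.35).

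The auxiliary subunits divided the regions more sharply. Cnih2 had the highest level per length of any member, 259.7 ± 23 CPM per kb in hippocampus, and was 13.6-fold lower in brainstem. Cnih3 was at 31.9 ± 1.5 in cortex and 1.16 ± 0.045 in cerebellum. Cacng2 (stargazin) and Cacng7 were highest in cerebellum (37.2 ± 1.9 and 112 ± 11), although Cacng7 there did not differ from cortex beyond its spread. Cacng3 was highest in cortex (49.8 ± 2.2), Cacng8 in hippocampus (52.8 ± 6.4) and Cacng5 in cerebellum (16.4 ± 1.1). Gsg1l was highest in the striatal libraries (38 ± 3.7), then cortex (26.9 ± 2.2), hippocampus (7.62 ± 1.7), brainstem (5.85 ± 0.41) and cerebellum (4.6 ± 0.37), each step passing the test. Shisa6 was shared by cerebellum (24.8 ± 2.5) and hippocampus (21.1 ± 4.8), which did not differ beyond their spread.

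Among the other receptors, Grin2c was the cerebellar NMDA subunit (54.2 ± 4.2 CPM per kb, 4.41-fold above the next region), and Grin2a and Grin2b were highest in hippocampus (18.4 ± 3.2 and 25.7 ± 6.1). Grin2d and Grin3a led in brainstem (4.05 ± 0.34 and 6.03 ± 0.22). The kainate subunits Grik1 and Grik2 were highest in cerebellum, Grik4 in hippocampus, and Grik5 in striatum (58.4 ± 7.6) and cortex (49.5 ± 3.5). Grm2 was highest in cortex (15.45 ± 1.1) and Grm5, a group I receptor, in hippocampus (31.6 ± 4), 29.4-fold above cerebellum. Grin3b was the lowest member in every region (0.0611 ± 0.024 in hippocampus to 1.01 ± 0.15 in brainstem); 32.1% of its exon bases overlap the antisense gene Tmem259, where reads were counted for neither gene, so that its level per length is uncertain. Over the 136 steps between neighbouring regions in these orders, 78 passed the test and 58 did not. Striatum and cortex were neighbours for most members, and the cortical markers in the striatal libraries (above) stand beside each of those steps; their part was not tested.

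**Figure D1:**
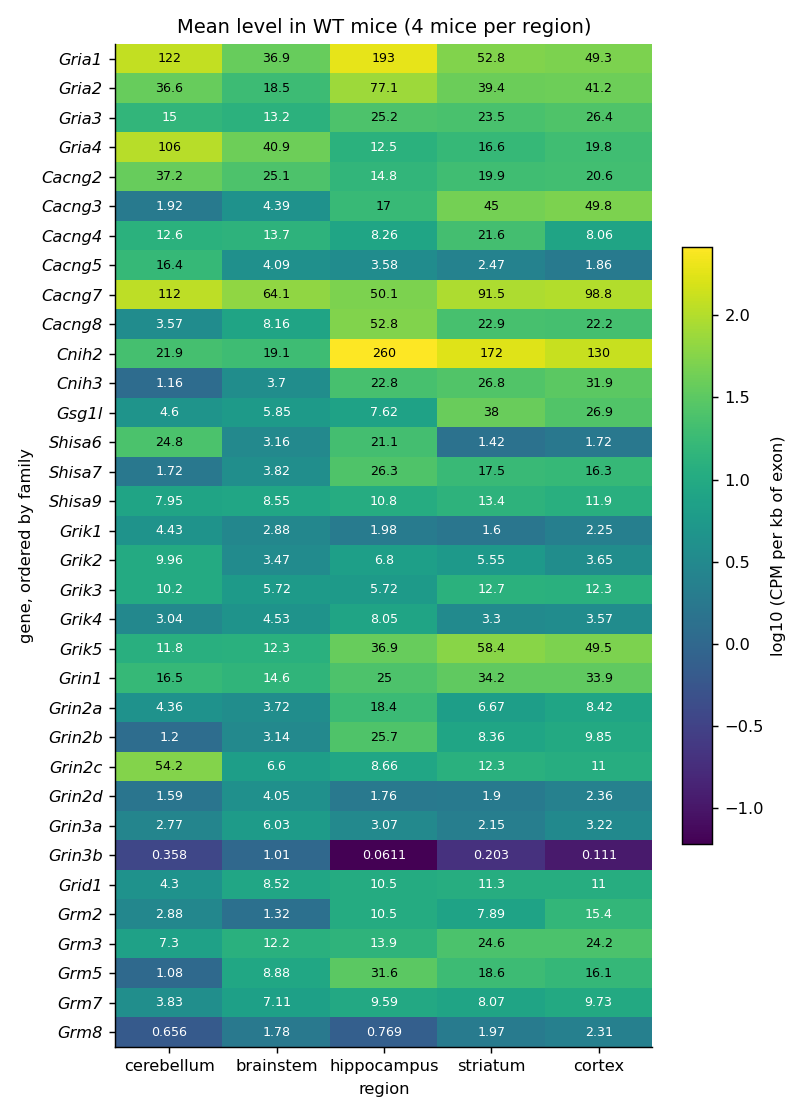
Mean level of each of the 34 genes (rows, grouped by receptor family) in WT mice for the 5 regions (columns), as CPM per kb of exon; colour is on a log10 scale and the printed number is the mean over 4 mice. Cnih2 in hippocampus holds the highest value and Grin3b the lowest in every region.

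Set against WT, 154Q mice had 28 called values out of 170 (34 genes in 5 regions; adjusted p under 0.05 in edgeR, by its quasi-likelihood F test, adjusted after Benjamini and Hochberg over all genes of a region), of which 25 were lower in 154Q. AXH mice had 14 called values, 12 of them lower. By region, 6 members were called in 154Q cerebellum (2 raised, 4 lowered; 5.22% of all genes called), 2 in brainstem (both lowered; 0.538%), 6 in hippocampus (all lowered; 6.06%), 6 in striatum (all lowered; 5.69%) and 8 in cortex (1 raised, 7 lowered; 11.1%). In AXH mice the counts were 2 in cerebellum (1 raised, 1 lowered; 2.21% of all genes), 0 in brainstem (0.0138%), 4 in hippocampus (1 raised, 3 lowered; 3.61%), 1 in striatum (lowered; 1.35%) and 7 in cortex (all lowered; 7.15%). These shares pool both directions. Of all genes, 3.12% were lowered in 154Q cerebellum, 0.4% in brainstem, 3.61% in hippocampus, 3.77% in striatum and 6.71% in cortex. The AXH shares lowered were 1.13, 0.0138, 2.06, 1.08 and 4.76% in the same order. More genes were lowered than raised in every region of both mutants. Both mutants were compared with the same WT libraries, so the 2 sets of values are not independent. The members were listed with earlier results of these data known, and their counts are descriptions. The median log2 fold change of the 34 members in 154Q was 0.01 in cerebellum, -0.07 in brainstem, -0.16 in hippocampus, -0.17 in striatum and -0.12 in cortex, whereas that of all genes tested lay between -0.0102 and 0.0093. In AXH mice the member medians were 0.04, -0.03, -0.10, -0.13 and -0.11 in the same order. In bulk tissue, fewer cells of a type and less RNA per cell cannot be told apart.

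**Figure D2:**
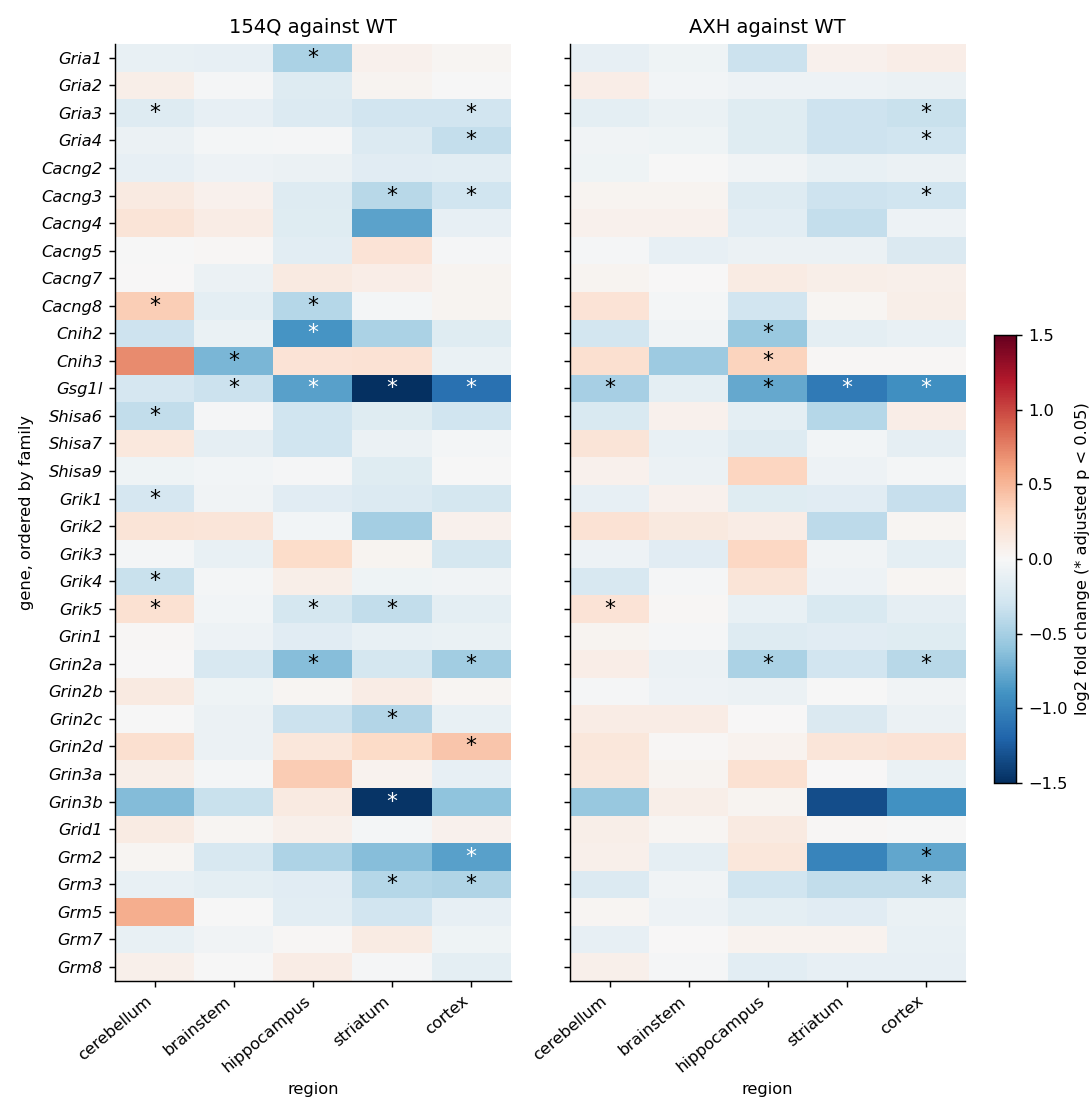
Log2 fold change against WT for the 34 genes (rows) in the 5 regions (columns), in 154Q mice (left) and AXH mice (right); asterisks mark values called at an adjusted p under 0.05 in the edgeR test. Gsg1l is lower in all 10 columns and was called in 4 regions in each genotype, and most other calls lie in the forebrain columns.

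Gsg1l (chromosome 7, 125878420 to 126082411, minus strand, GRCm38) was called in more regions than any other member. In cortex, the WT libraries held 115, 107, 93.3 and 105 CPM, the 154Q libraries 51.5, 41.7, 48.9 and 51.4 CPM and the AXH libraries 48.75, 62.1, 55.2 and 55.25 CPM. No mutant library reached the lowest WT library. Gsg1l fell by 53.9% in 154Q cortex (log2 fold change -1.12 ± 0.08, edgeR adjusted p = 2.44e-06) and by 47.3% in AXH cortex (-0.92 ± 0.08, edgeR adjusted p = 1.26e-05). In striatum, the levels were 149.0, 137.5, 166 and 140.5 CPM in WT, 51.6, 47.5, 56.3 and 55.15 CPM in 154Q and 64.3, 73.6, 76.6 and 71 CPM in AXH mice. The 3 groups did not overlap, with WT highest and 154Q lowest. The fall was 64.5% in 154Q (-1.49 ± 0.08, edgeR adjusted p = 1.53e-06) and 51.9% in AXH (-1.05 ± 0.08, edgeR adjusted p = 4.9e-05). Without WT-220 and AXH-217, the striatal libraries that stood apart in tissue markers, the log2 fold changes were -1.42 ± 0.07 in 154Q and -1.02 ± 0.07 in AXH.

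In the other 3 regions the log2 fold changes of Gsg1l were smaller in size. The hippocampal levels were 40.2, 24.7, 30.05 and 27 CPM in WT, 13.5, 22.1 and 16.5 CPM in the 3 154Q and 20.1, 13.8, 21.8 and 16.2 CPM in the AXH libraries, both mutants below all WT libraries (154Q -0.82 ± 0.20, edgeR adjusted p = 0.0356; AXH -0.76 ± 0.19, edgeR adjusted p = 0.0435). The 154Q call was lost without WT-70, WT-220, WT-221, 154Q-69 or 154Q-75 (log2 fold change -0.88 to -0.66, edgeR adjusted p = 0.0507 to 0.164). The AXH call was lost without WT-70, WT-220, WT-221, 154Q-75, AXH-207, AXH-209, AXH-217 or AXH-218 (log2 fold change -0.87 to -0.60, edgeR adjusted p = 0.0548 to 0.117). In brainstem, WT libraries held 25.2, 24.55, 21.5 and 23 CPM, 154Q 18.6, 19.7, 17.6 and 19.6 CPM and AXH 21.2, 20.5 and 22.3 CPM. Gsg1l was lowered there in 154Q mice (-0.32 ± 0.06, edgeR adjusted p = 0.0333), and the AXH value was -0.14 ± 0.06, edgeR adjusted p = 0.728. The brainstem call was lost without WT-70, WT-77, WT-221, 154Q-69, 154Q-71, 154Q-75, AXH-207 or AXH-209 (log2 fold change -0.34 to -0.29, edgeR adjusted p = 0.0506 to 0.093). In cerebellum it was the AXH mice that passed the test: WT libraries held 19.2, 19.1, 20 and 16.7 CPM, 154Q 14.1, 15.9, 17.8 and 15.1 CPM and AXH 10.8, 13.45, 14.9 and 14.1 CPM. The cerebellar value was -0.50 ± 0.10, edgeR adjusted p = 0.015 in AXH and -0.25 ± 0.10, edgeR adjusted p = 0.162 in 154Q mice, and the AXH call was lost without AXH-209 (adjusted p = 0.0525 in edgeR).

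**Figure D3:**
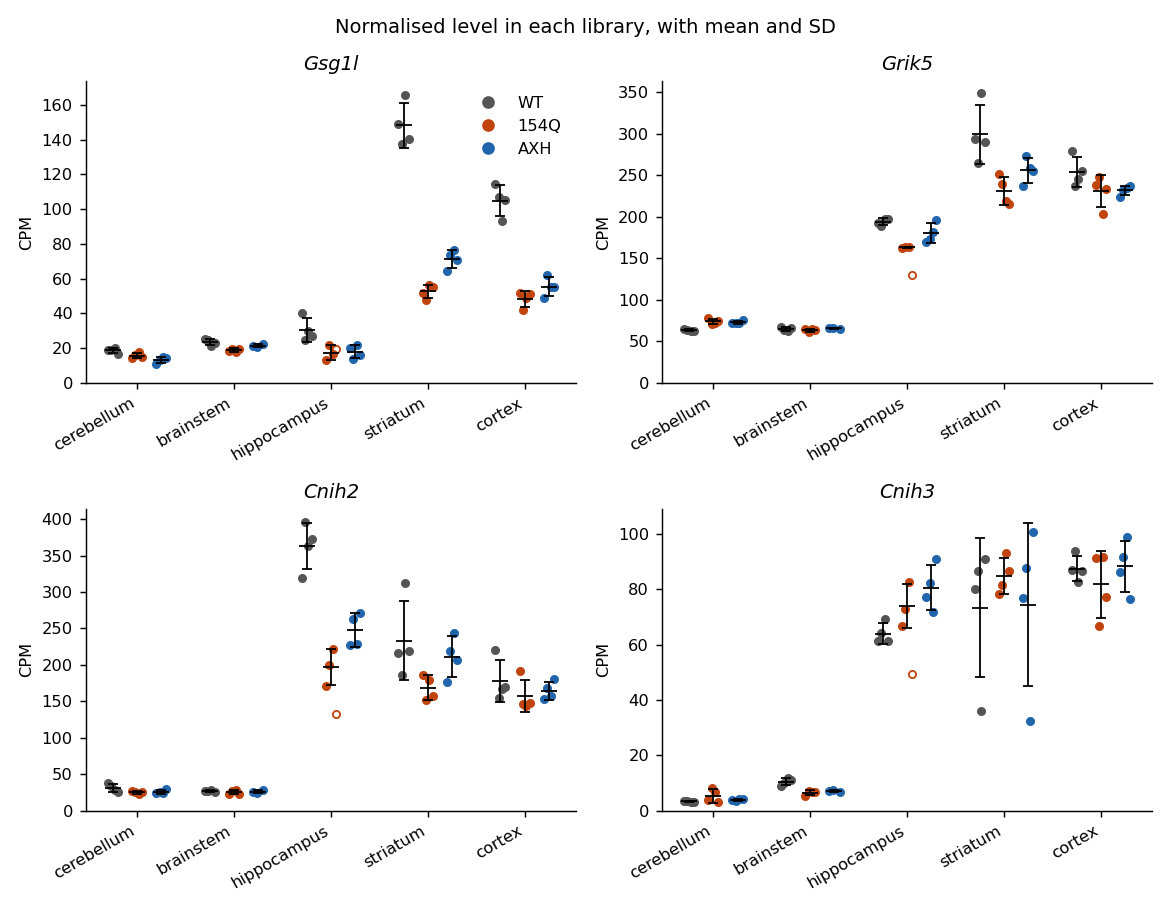
Level of Gsg1l, Grik5, Cnih2 and Cnih3 (CPM, linear axis from 0) in each library of the 5 regions, with WT in grey, 154Q in orange and AXH in blue; black marks give the mean and SD, and the open circle is the hippocampal library 154Q-76, which is not in the mean. Gsg1l separates WT from both mutants in striatum and cortex, Grik5 is above WT in cerebellum and below it in the 154Q hippocampus, Cnih2 separates in hippocampus alone, and Cnih3 is lower in brainstem.

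The cortex held the most called members. Grm2 (chromosome 9, 106643095 to 106656082, minus strand), the presynaptic group II receptor, was at 83.2, 73.4, 70.3 and 74.4 CPM in WT, 39.05, 48.15, 41.7 and 42.4 CPM in 154Q and 48.7, 47.4, 44.9 and 34.7 CPM in AXH libraries. Both mutants lay wholly below WT, with falls of 43.1% in 154Q (-0.81 ± 0.09, edgeR adjusted p = 7.35e-05) and 41.7% in AXH (-0.78 ± 0.09, edgeR adjusted p = 0.000125). Grm3 (chromosome 5, 9485541 to 9725170, minus strand), the other group II receptor, which astrocytes also express, was at 78.8, 70, 64.1 and 80.9 CPM in WT, 58.1, 56.2, 48.6 and 52.1 CPM in 154Q and 59.9, 55.1, 58.1 and 54.4 CPM in AXH libraries. It was lowered in both genotypes (154Q -0.45 ± 0.07, edgeR adjusted p = 0.00115; AXH -0.37 ± 0.07, edgeR adjusted p = 0.0066), again without overlap with WT. Grin2a (chromosome 16, 9567898 to 9995560, minus strand), the NMDA subunit of mature forebrain synapses, was at 166, 136, 143 and 157 CPM in WT, 104, 99.7, 104 and 111 CPM in 154Q and 101, 111, 123 and 114 CPM in AXH libraries. It fell by 30.4% in 154Q (-0.52 ± 0.07, edgeR adjusted p = 0.000199) and by 25.3% in AXH (-0.42 ± 0.07, edgeR adjusted p = 0.00146).

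Of the cortical AMPA receptor genes, Gria3 (chromosome X, 41400854 to 41678601, plus strand) was at 283, 256, 244 and 254 CPM in WT, 227, 200.5, 204 and 218.1 CPM in 154Q and 192, 215, 225 and 189.9 CPM in AXH mice. It was lowered in both (154Q -0.29 ± 0.06, edgeR adjusted p = 0.00916; AXH -0.34 ± 0.06, edgeR adjusted p = 0.00479), with no mutant library as high as the lowest WT library. Gria4 was likewise below WT in both mutants, at 120.2 to 129 CPM in WT, 89.2 to 102 CPM in 154Q and 97.1 to 107 CPM in AXH mice (154Q -0.36 ± 0.05, edgeR adjusted p = 0.000318; AXH -0.30 ± 0.05, edgeR adjusted p = 0.00185). The TARP Cacng3 (chromosome 7, 122670492 to 122769393, plus strand) was at 145, 130.3, 138.5 and 138 CPM in WT, 117, 105, 106 and 119 CPM in 154Q and 115, 109, 113 and 110 CPM in AXH mice. It was lowered in both (154Q -0.30 ± 0.05, edgeR adjusted p = 0.00136; AXH -0.30 ± 0.05, edgeR adjusted p = 0.00174). Gria1 and Gria2, the most abundant AMPA subunits of the cortex, had log2 fold changes of 0.03 ± 0.07 and -0.01 ± 0.04 in 154Q, and neither was called. Grin2d, an NMDA subunit of interneurons and brainstem, was the only member raised in 154Q cortex, at 17.8 to 23.5 CPM against 14.15 to 16.4 CPM in WT (0.41 ± 0.09, edgeR adjusted p = 0.00816); the AXH value was 0.21 ± 0.09, edgeR adjusted p = 0.207. All 8 cortical calls in 154Q and 5 of the 7 in AXH held in every alternative run, including without WT-221, without the pair 154Q-76 and AXH-207, and with that pair exchanged. The exceptions, Grm3 and Gria3 in AXH, missed the threshold only when the series of mouse numbers, under 100 or over 200, was a covariate (edgeR adjusted p = 0.0594 and 0.0728). In 154Q cortex 5 of 6 astrocyte markers and 3 of 6 neuron markers were also lowered, their summed levels being 522 to 569 CPM against 673.5 to 774 CPM in WT, and 5835 to 6553 CPM against 6906 to 7515 CPM. In AXH cortex 0 of the astrocyte and 1 of the neuron markers were called by edgeR. Of 8 cortical markers, 1 was raised and 2 were lowered in 154Q and 4 were lowered in AXH mice, and their median level was 81 to 94.1% of WT in 154Q and 81.2 to 92.5% in AXH, against 95.2 to 103% in WT libraries. The part of these shifts in the receptor values was not tested.

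**Figure D4:**
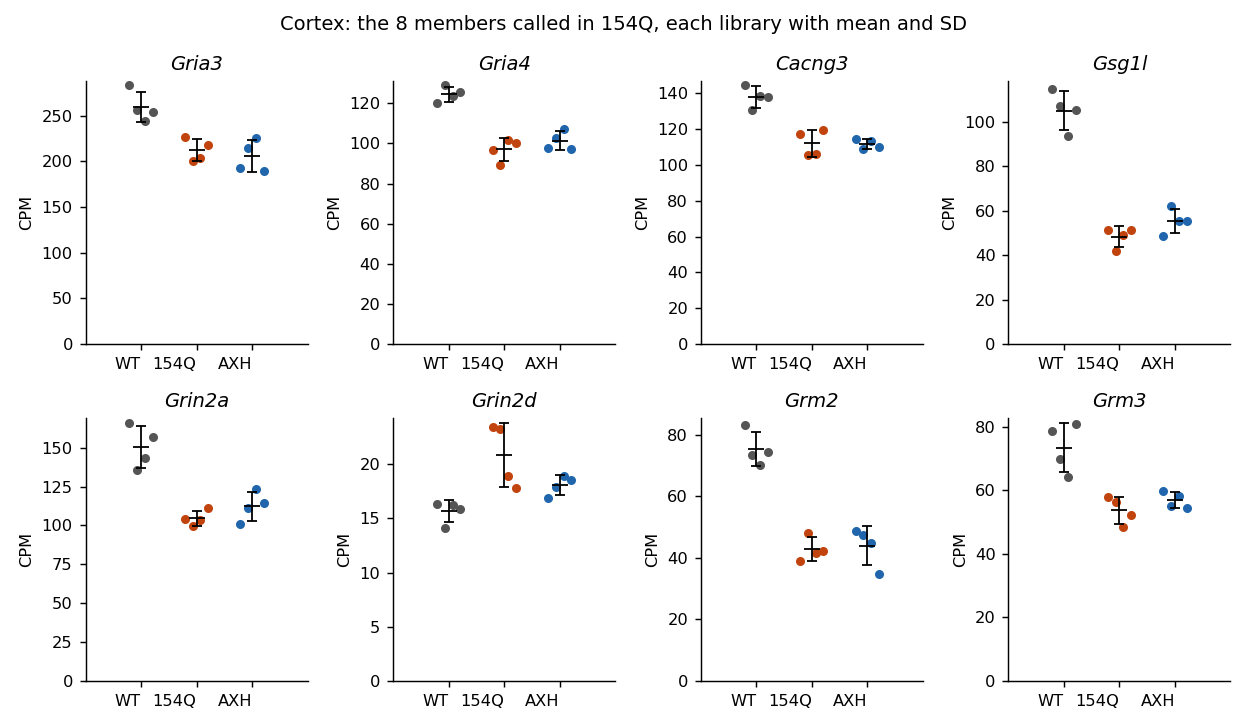
Level (CPM, linear axes from 0) of the 8 members called in 154Q cortex, 4 libraries per genotype with the mean and SD. For 7 of the 8 genes every 154Q and AXH library lies below every WT library, and for Grin2d every mutant library lies above WT. The 8 were picked by their calls in these same libraries, so the separation only describes them. The share of all genes separated in this way was not counted.

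In the 154Q hippocampus, the largest fall among the members was that of Cnih2 (chromosome 19, 5092868 to 5098521, minus strand), the cornichon that accompanies AMPA receptors of pyramidal cells. WT libraries held 319.5, 395.5, 363 and 372 CPM, 154Q 171, 199.6 and 221.2 CPM and AXH 227, 263, 228 and 272 CPM. No mutant library reached the WT range. Cnih2 fell by 45.9% in 154Q (-0.89 ± 0.10, edgeR adjusted p = 0.000443) and by 31.8% in AXH (-0.55 ± 0.09, edgeR adjusted p = 0.00686). Grin2a was at 305, 278, 362 and 402 CPM in WT, 222, 204 and 230.2 CPM in 154Q and 233, 246, 219 and 271 CPM in AXH mice, both below WT (154Q -0.63 ± 0.11, edgeR adjusted p = 0.008; AXH -0.48 ± 0.10, edgeR adjusted p = 0.0284). The AXH call was lost without WT-220, WT-221, AXH-207, AXH-209 or AXH-217 (log2 fold change -0.49 to -0.38, edgeR adjusted p = 0.0554 to 0.0902). Gria1, the most abundant AMPA subunit there, was at 986 to 1324 CPM in WT and 822.5 to 929 CPM in 154Q mice (-0.47 ± 0.10, edgeR adjusted p = 0.0142). Cacng8, the TARP of hippocampal synapses, was at 107 to 140 CPM in WT and 88.9 to 100.2 CPM in 154Q mice (-0.43 ± 0.09, edgeR adjusted p = 0.0119). In AXH mice, Gria1 (-0.32 ± 0.09, edgeR adjusted p = 0.0649) and Cacng8 (-0.29 ± 0.08, edgeR adjusted p = 0.067) missed the threshold.

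Grik5 (chromosome 7, 25009849 to 25072346, minus strand), a high-affinity kainate subunit, was at 193, 189, 198 and 198 CPM in the WT hippocampus and at 162, 164 and 164 CPM in the 154Q one (-0.26 ± 0.06, edgeR adjusted p = 0.0173); AXH libraries, at 169, 173, 182 and 196 CPM, overlapped WT (-0.11 ± 0.05, edgeR adjusted p = 0.259). Cnih3 was the only member raised in the hippocampus, in AXH mice (77.4, 82.2, 71.7 and 90.9 CPM against 61.3, 64.1, 69.35 and 61.2 CPM in WT; 0.33 ± 0.08, edgeR adjusted p = 0.0452), and the 154Q value was 0.20 ± 0.09, edgeR adjusted p = 0.216. The Cnih3 call was lost without WT-70, WT-77, WT-220, WT-221, 154Q-71, AXH-207, AXH-209 or AXH-218 (log2 fold change 0.27 to 0.37, edgeR adjusted p = 0.0513 to 0.112). The calls of Gria1, Cacng8 and Grik5 in 154Q were each lost without 154Q-69 or 154Q-71 (log2 fold changes -0.45 to -0.44, -0.42 to -0.40 and -0.26; edgeR adjusted p = 0.0602 to 0.0768), fits that left 2 libraries in that group. With the library 154Q-76 put back, all 6 calls of 154Q held, whereas none of the 4 in AXH did (edgeR adjusted p = 0.0628 for Cnih2, 0.066 for Gsg1l, 0.127 for Grin2a and 0.235 for Cnih3). Of all genes, 279 were then called in AXH hippocampus, against 786 without that library. Covariates ended some of these calls too. In AXH mice, Cnih3 and Gsg1l were lost with the number series (edgeR adjusted p = 0.178 and 0.182), with Xist (0.0799 and 0.065) and with Ttr (0.2 and 0.116), and Grin2a with Xist (0.0523). In 154Q mice, Grik5 was lost with the number series (0.0534) and Gsg1l with Xist (0.0543). Hippocampal markers were lower as well: 4 of 8 were lowered in 154Q and 2 of 8 in AXH mice, and their median level relative to WT was 64.4 to 72.2% in 154Q libraries, against 82.4 to 119% in WT and 76.6 to 114% in AXH. Of 6 astrocyte markers, 2 were lowered in 154Q hippocampus (summed level 749 to 866 CPM, against 967 to 1025 CPM in WT) and 0 in AXH by edgeR. Cortical markers in the hippocampal libraries ranged from 24.3 to 55% of WT cortex. The part of these in the receptor values was not tested.

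In the striatal libraries, 5 members besides Gsg1l were lowered in 154Q mice. Grm3 was at 69.3, 81.15, 73.2 and 75.2 CPM in WT, 51.6, 58.2, 56.4 and 56.3 CPM in 154Q and 53.4, 58.9, 67.8 and 51.1 CPM in AXH libraries, both mutants below WT (154Q -0.42 ± 0.09, edgeR adjusted p = 0.0145; AXH -0.37 ± 0.09, edgeR adjusted p = 0.0619). Cacng3 was at 124, 125, 109.9 and 139 CPM in WT, 91.7, 91.7, 93 and 96.5 CPM in 154Q and 96.25, 107, 83.4 and 114 CPM in AXH libraries, the 154Q range lying below WT (154Q -0.42 ± 0.09, edgeR adjusted p = 0.0227; AXH -0.31 ± 0.09, edgeR adjusted p = 0.142). Grik5 was at 294, 264.5, 349 and 291 CPM in WT and 251, 239.9, 219 and 216 CPM in 154Q libraries (-0.37 ± 0.09, edgeR adjusted p = 0.0277), with AXH at 237, 273, 259 and 255.5 CPM (-0.23 ± 0.09, edgeR adjusted p = 0.28). Grin2c was at 51.7 to 70.4 CPM in WT and 43.3 to 50.5 CPM in 154Q libraries (-0.44 ± 0.09, edgeR adjusted p = 0.0146). Grin3b (chromosome 10, 79970715 to 79977190, plus strand) was called as lowered (-1.47 ± 0.36, edgeR adjusted p = 0.0366) from 0.419, 0.661, 0.926 and 0.655 CPM in WT and 0.429, 0.219, 0.234 and 0.0832 CPM in 154Q libraries, with AXH at 0.313, 0.268, 0.339 and 0.144 CPM. Its counts ran from 3 to 50 per library, the 154Q and WT ranges overlapped, and reads over the bases shared with Tmem259 were counted for neither gene.

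Each of these 5 calls was lost without at least 1 library. The Cacng3 call was lost without WT-77, WT-221, 154Q-69, 154Q-71, 154Q-75 or 154Q-76 (log2 fold change -0.43 to -0.36, edgeR adjusted p = 0.0514 to 0.0701). The Grik5 call was lost without WT-221, 154Q-69, 154Q-71, 154Q-75 or 154Q-76 (log2 fold change -0.41 to -0.34, edgeR adjusted p = 0.0501 to 0.0938). The Grin3b call was lost without WT-77, WT-220, WT-221, 154Q-71, 154Q-75, 154Q-76, AXH-207 or AXH-209 (log2 fold change -1.48 to -1.21, edgeR adjusted p = 0.053 to 0.102). Grin2c was lost without 154Q-71 or 154Q-75 (edgeR adjusted p = 0.0531 to 0.0555) and Grm3 without 154Q-69 (0.0501). With that series of mouse numbers as covariate, Gsg1l alone remained called in 154Q striatum. Of all genes, 234 were called there with that covariate, against 1047 without it. Without WT-220 and AXH-217, a comparison chosen after the data were seen, 9 members were called in 154Q (11.8% of all genes), and 7 in AXH (5.06%) in place of 1. Grin3b lost its call in 154Q (-1.19 ± 0.39, edgeR adjusted p = 0.0691). Grm2, Grin2a, Gria3 and Gria4 were then lowered in both mutants. Grm2 was at 43, 54, 10.3 and 47.1 CPM in WT libraries, of which WT-220 was the third value, and at 25.2, 20.1, 4.26 and 27.9 CPM in AXH libraries, of which AXH-217 was the third. With all 12 libraries its log2 fold change was -0.64 ± 0.50 in 154Q and -0.99 ± 0.51 in AXH mice, and without those 2 it was -0.94 ± 0.14, edgeR adjusted p = 0.000873 in 154Q and -0.97 ± 0.15, edgeR adjusted p = 0.00336 in AXH mice. Grin2a moved from -0.29 ± 0.16 to -0.38 ± 0.08, edgeR adjusted p = 0.0211 in AXH, Gria3 from -0.31 ± 0.12 to -0.36 ± 0.07, edgeR adjusted p = 0.00697, and Gria4 from -0.31 ± 0.13 to -0.34 ± 0.06, edgeR adjusted p = 0.00778. The 7 members then called in AXH striatum were the 7 called in AXH cortex: Cacng3, Gria3, Gria4, Grin2a, Grm2, Grm3 and Gsg1l. Given the cortical markers in those libraries, striatal and cortical tissue cannot be told apart as the source of these values. Summed striatal markers were at 1867 to 5747 CPM in WT, 752 to 1287 CPM in 154Q and 639 to 3556 CPM in AXH libraries, AXH overlapping WT. All 8 markers were lower than in WT in both mutants, but 0 were called in either by edgeR. The part of these markers was not tested. Of 6 astrocyte markers, 2 were lowered in 154Q striatum (summed level 479 to 501 CPM, against 606 to 651 CPM in WT) and 0 in AXH, and of 6 oligodendrocyte markers 0 were called in either by edgeR, with summed levels of 7070 to 8556 CPM in 154Q and 9753 to 16190 CPM in WT. Their part in the values of Grm3 and the other members was not tested.

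**Figure D5:**
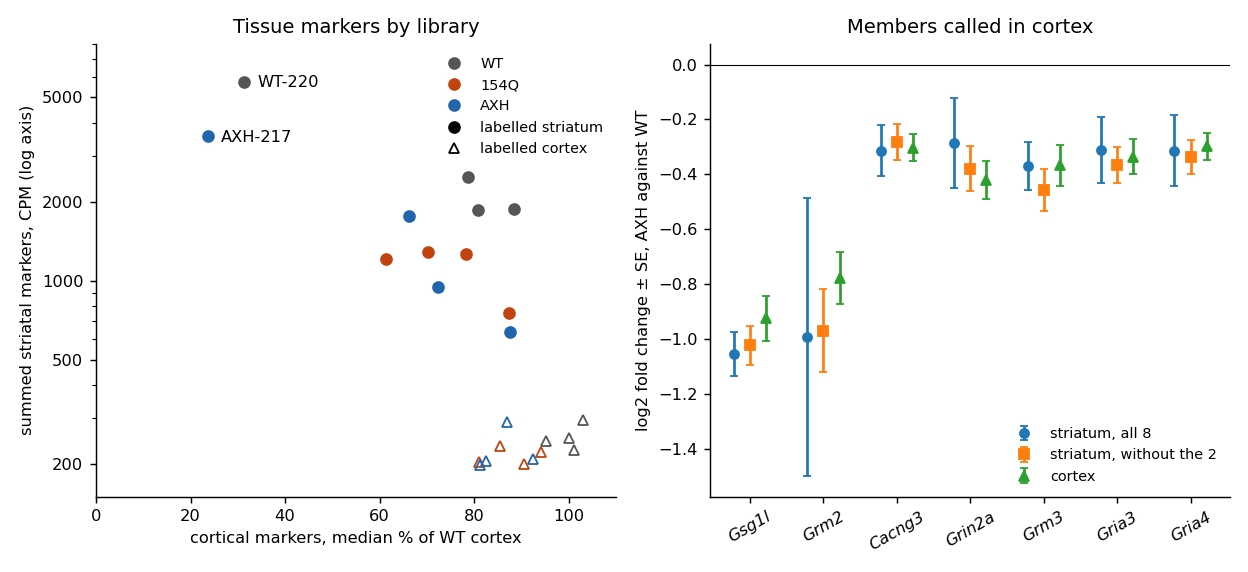
Left: for each library labelled striatum (filled circles) or cortex (open triangles), the median level of 8 cortical markers as a percentage of WT cortex against the summed CPM of 8 striatal markers (log axis); WT-220 and AXH-217 lie apart, at 31.4 and 23.7%. Right: log2 fold change ± SE of AXH against WT for the 7 members called in AXH cortex, in striatum with all 8 libraries, in striatum without those 2, and in cortex; the values without the 2 libraries have smaller errors, most visibly for Grm2.

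In cerebellum, Grik5 moved against its direction in hippocampus and striatum. WT libraries held 65, 64, 62.2 and 62.3 CPM, 154Q 78.1, 71.6, 72.6 and 74.95 CPM and AXH 72.4, 71.8, 72 and 76.2 CPM. Both mutants lay above all WT libraries, by 17.2% in 154Q (0.23 ± 0.04, edgeR adjusted p = 0.00249) and 15.3% in AXH (0.21 ± 0.04, edgeR adjusted p = 0.0125). Cacng8, a TARP that is low in cerebellum, was raised in 154Q mice (9.82 to 12.05 CPM against 7.815 to 9.8 CPM in WT; 0.37 ± 0.09, edgeR adjusted p = 0.026). The other 4 called members were lowered in 154Q. Shisa6, an auxiliary subunit that stabilizes synaptic AMPA receptors, was at 179 to 216.9 CPM in WT and 139 to 166 CPM in 154Q mice (-0.37 ± 0.06, edgeR adjusted p = 0.00271). The kainate subunits Grik4 (17.3 to 20.03 CPM in WT, 14 to 15.4 CPM in 154Q; -0.33 ± 0.06, edgeR adjusted p = 0.00484) and Grik1 (29.8 to 33.95 CPM in WT, 25.1 to 27.4 CPM in 154Q; -0.25 ± 0.06, edgeR adjusted p = 0.017) were below all WT libraries. Gria3 was at 142.5, 147, 159 and 168 CPM in WT, 136.5, 139, 137 and 127 CPM in 154Q and 139, 136, 137 and 143 CPM in AXH mice (-0.19 ± 0.05, edgeR adjusted p = 0.0395 in 154Q). The AXH values were -0.23 ± 0.06 for Shisa6, -0.24 ± 0.06 for Grik4, -0.13 ± 0.06 for Grik1, -0.15 ± 0.05 for Gria3 and 0.21 ± 0.09 for Cacng8, and none of these was called.

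Grik5, Grik4 and Shisa6 held in every alternative run for the cerebellum in 154Q. The Cacng8 call was lost without WT-77, WT-220, 154Q-69, 154Q-71 or 154Q-75 (log2 fold change 0.32 to 0.38, edgeR adjusted p = 0.0605 to 0.0958). The Grik1 call was lost without WT-221, 154Q-69 or 154Q-76 (log2 fold change -0.24 to -0.20, edgeR adjusted p = 0.05 to 0.0519). The Gria3 call was lost without WT-220, WT-221, 154Q-69, 154Q-71, 154Q-75, 154Q-76, AXH-207, AXH-209 or AXH-217 (log2 fold change -0.21 to -0.15, edgeR adjusted p = 0.0562 to 0.124). With the mouse numbers, under 100 or over 200, entered as covariate, the 154Q values of Gria3 (-0.10, edgeR adjusted p = 0.243), Cacng8 (0.36, 0.0905) and Grik1 (-0.20, 0.0936) missed the threshold too. Of 8 cerebellar markers, 3 were lowered in 154Q and 1 in AXH mice, and their median level was 85.4 to 91.1% of the WT mean in 154Q libraries, against 94.1 to 106% in WT and 94 to 100% in AXH. Whether this moved the receptor values was not tested.

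The brainstem had the fewest changes. Cnih3 (chromosome 1, 181352628 to 181460641, plus strand) was at 9.035, 9.9, 11.8 and 11 CPM in WT, 5.26, 7.2, 6.57 and 6.79 CPM in 154Q and 7.065, 7.46 and 6.92 CPM in AXH libraries. Both mutants lay below WT, but only 154Q passed the test (154Q -0.69 ± 0.10, edgeR adjusted p = 0.0105; AXH -0.54 ± 0.11, edgeR adjusted p = 0.219). The 154Q call was lost once the series of mouse numbers (under 100 or over 200) entered as a covariate (-0.55, edgeR adjusted p = 0.1) and in no other alternative. No member was called in the AXH brainstem by edgeR; 3 had an unadjusted p under 0.05 (6.73% of all genes), and DESeq2 called 1. Of 10 brainstem markers, 1 was lowered in 154Q and 0 in AXH mice by edgeR. Their median level was 79.7 to 98.1% of the WT mean in 154Q libraries, against 97 to 104% in WT and 83.5 to 109% in AXH. Of 6 astrocyte and 4 oligodendrocyte precursor markers, 1 each was lowered in 154Q and 0 in AXH. Cerebellar markers ranged from 1.09 to 7.18% of WT cerebellum. The part of these in the receptor values was not tested.

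Whether the effect of a genotype differed between regions was tested directly, with an edgeR F test of the interaction over all 58 libraries kept. In 154Q mice it passed for 9 members (5.57% of 24255 genes): Gsg1l (adjusted p = 1.23e-06), Grik5 (2.66e-05), Cacng8 (0.000347), Cnih2 (0.0173), Grik2 (0.0196), Gria1 (0.0279), Cacng4 (0.0366), Cnih3 (0.0399) and Cacng3 (0.0408). For Gsg1l all 5 regional values were below 0, and they ranged from -0.25 ± 0.10 in cerebellum to -1.49 ± 0.08 in striatum. For Grik5 they ran from 0.23 ± 0.04 in cerebellum to -0.37 ± 0.09 in striatum, and for Cacng8 from 0.37 ± 0.09 in cerebellum to -0.43 ± 0.09 in hippocampus. In AXH mice the interaction passed for Grik5 (edgeR adjusted p = 0.00597) and Gsg1l (0.00302), 1.92% of all genes being called. The libraries of a mouse share its number, and with the mouse as a block Cnih3 and Cacng4 lost the call in 154Q (edgeR adjusted p = 0.0508 and 0.0668), while Grin2d (0.0481) and Grm5 (0.0481) gained it, as did Grin3b in AXH (0.0419). Gsg1l, Grik5 and Cacng8 in 154Q, and Grik5 in AXH, kept the call whichever mouse was left out. Gsg1l in AXH lost it without AXH-218, and the other 6 members lost it in 154Q without 154Q-71. Without all striatal libraries, chosen after the data were seen, Cacng3, Cacng4 and Grik2 lost it in 154Q, and Grin2a, Grin2d and Grm2 gained it.

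The AXH and 154Q mice were compared directly to ask whether the loss of CIC binding altered the effect of the expanded allele. By edgeR, no member passed the threshold in any of the 5 regions; of all genes, 0.0335% were called in cerebellum, 0.0184% in hippocampus and 0% in brainstem, striatum and cortex. At an unadjusted p under 0.05, the counts were 6 members in cerebellum (7.6% of all genes), 3 in brainstem (5.35%), 5 in hippocampus (7.43%), 3 in striatum (3.26%) and 3 in cortex (6.67%), and DESeq2 called 0 members in every region. All 154Q mice have numbers under 100 and all AXH mice numbers over 200, so that between these 2 groups alone genotype and number series cannot be told apart. The WT mice span both series, and with the series as covariate the count was again 0 in each region by edgeR. Gsg1l was among the members with an unadjusted p under 0.05, without that covariate, in cerebellum, brainstem, striatum and cortex by edgeR. The log2 difference of Gsg1l, AXH over 154Q, was 0.44 ± 0.08, edgeR adjusted p = 0.945 in striatum, where the 2 groups did not overlap, 0.19 ± 0.08, edgeR adjusted p = 0.744 in cortex, 0.18 ± 0.06, edgeR adjusted p = 0.881 in brainstem and -0.24 ± 0.10, edgeR adjusted p = 0.558 in cerebellum. For Cnih2 the differences were 0.33 ± 0.10, edgeR adjusted p = 0.663 in hippocampus and 0.33 ± 0.15, edgeR adjusted p = 0.945 in striatum, and for Shisa6 in cerebellum 0.15 ± 0.06, edgeR adjusted p = 0.621. The median SE of this difference over the 34 members was 0.0723 in cortex and 0.13 in striatum (log2 scale). A p above the threshold does not show that the 2 genotypes act alike.

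The 16 members called in no region in either mutant by the main edgeR fits were the AMPA subunit Gria2, the TARPs Cacng2, Cacng4, Cacng5 and Cacng7, Shisa7 and Shisa9, the kainate subunits Grik2 and Grik3, the NMDA subunits Grin1, Grin2b and Grin3a, Grid1, and the metabotropic receptors Grm5, Grm7 and Grm8. DESeq2 called more members in AXH mice (below), and whether any of those is among these 16 is not given here. Cacng4 in 154Q cerebellum had an edgeR adjusted p = 0.059, and Grin1 in AXH hippocampus 0.0859. Of their 160 values against WT, 148 had an absolute log2 fold change under 0.25. Grin1, the subunit that all NMDA receptors need, ranged from -0.19 to 0.04, Gria2 from -0.20 to 0.10, and Grin2b from -0.08 to 0.14. Only 3 values exceeded 0.5 in size. Cacng4 was at 67.9, 54.6, 124 and 59.2 CPM in the WT and 45.9, 34.9, 51.1 and 43.2 CPM in the 154Q striatal libraries (-0.81 ± 0.32, edgeR adjusted p = 0.147), and Grik2 in the same libraries was -0.51 ± 0.18, edgeR adjusted p = 0.107. WT-220 was the highest library for both. Grm5 in cerebellum was at 11, 22.7, 21.7 and 11.5 CPM in 154Q and 12.6, 9.79, 11.5 and 12 CPM in WT libraries (0.55 ± 0.21, edgeR adjusted p = 0.169), with 154Q-71 and 154Q-75 highest. Cnih3 was also highest in those 2 cerebellar libraries, at 8.15 and 6.71 CPM. It was at 3.73 CPM in 154Q-69, 2.97 CPM in 154Q-76 and 3.42, 3.56, 3.14 and 3.2 CPM in WT libraries. Cacng3 was at 7.27 and 7.21 CPM in those 2 libraries, against 4.04 CPM in 154Q-69 and 5.67 CPM in 154Q-76. Cnih3 and Cacng3 passed the interaction test in 154Q mice (above), and both lost that call without 154Q-71 or without 154Q-75.

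A list of 39 postsynaptic scaffold, receptor trafficking and glutamate transport genes gives the setting of these values. In 154Q mice, 4 were raised and 7 lowered in cerebellum (5.22% of all genes called), 0 and 1 in brainstem (0.538%), 0 and 12 in hippocampus (6.06%), 1 and 6 in striatum (5.69%), and 3 and 12 in cortex (11.1%). In AXH mice the counts were 1 and 2 (2.21%), 0 and 0 (0.0138%), 0 and 8 (3.61%), 0 and 6 (1.35%), and 0 and 8 (7.15%). The median log2 fold change of the list in 154Q was -0.06 in cerebellum, -0.04 in brainstem, -0.18 in hippocampus, -0.15 in striatum and -0.15 in cortex. Homer1, Homer3, Dlg4 and Nptxr were called in 3 regions in 154Q, each time as lowered. Homer1, a scaffold that ties group I metabotropic receptors to the postsynaptic density, was at 220.3, 244, 286 and 217.1 CPM in WT, 142, 143, 129 and 139 CPM in 154Q and 133, 126, 142 and 167 CPM in AXH cortex (154Q -0.81 ± 0.09, edgeR adjusted p = 6.23e-05; AXH -0.77 ± 0.09, edgeR adjusted p = 0.000109). It was lowered in both mutants also in hippocampus (154Q -0.55 ± 0.10, edgeR adjusted p = 0.00926) and striatum (154Q -0.94 ± 0.10, edgeR adjusted p = 0.00023). Nptxr, the neuronal pentraxin receptor that clusters AMPA receptors, was at 855, 699.7, 672 and 698 CPM in WT and 507, 447, 446.5 and 480.2 CPM in 154Q cortex (-0.64 ± 0.07, edgeR adjusted p = 5.36e-05), and was also lowered in 154Q hippocampus (-0.72 ± 0.09, edgeR adjusted p = 0.00103) and cerebellum (-0.18 ± 0.04, edgeR adjusted p = 0.0195). Dlg4, which encodes PSD-95, was lowered in 154Q hippocampus (-0.41 ± 0.07, edgeR adjusted p = 0.00392), striatum (-0.40 ± 0.06, edgeR adjusted p = 0.00174) and cortex (-0.23 ± 0.06, edgeR adjusted p = 0.026). Homer3, the Homer protein of Purkinje cells, was lowered in 154Q cerebellum (-0.47 ± 0.09, edgeR adjusted p = 0.00761), hippocampus (-1.20 ± 0.17, edgeR adjusted p = 0.00202) and cortex (-0.48 ± 0.13, edgeR adjusted p = 0.0295).

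The RefSeq promoters (GRCm38.p6; 250 bases before to 50 after each annotated start) were searched on both strands for TGAATGAA and TGAATGGA, the octamers that CIC is known to bind. Of the members, 22 had a promoter entry. Gsg1l, Grin2a, Gria1, Gria3, Grik1 and Shisa6, each called in a region, had none and were not searched. Nor were Cacng4, Grid1, Grin2b, Grin3a, Grm5 and Shisa9. Of the 26 promoters searched, 0 held either octamer. The share over all 32851 promoters was 2.47%, so low that 0 of 26 does not set the members apart. This says only that these letters are not in those windows.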

How the data were processed

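RNA from 5 brain regions of 12 mice had been isolated with the miRNeasy kit and sequenced from polyA libraries. Per the labels and the study's methods, trimming by the authors used Trimmomatic (0.36), and STAR (2.7.2d) served for alignment to GRCm38.p6 and for counting read pairs on GENCODE M18 genes, 1 library per mouse and region. The deposited values are raw counts per gene; the unstranded column was used, since reads divided evenly between strands (48.9 to 50.1% on the first). Reads over exons of overlapping genes are left uncounted there, which touches 16 of the 34 members. Gene symbols, positions and exon overlaps came from GENCODE vM21, a later release than the one counted on. The 4 summary lines were left out, and lines naming no gene held at most 6.3e-05% of counts.

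Each region was fitted in edgeR (4.0.16; R 4.3.3) with the 3 genotypes as groups, filterByExpr, TMM factors, the quasi-likelihood test and Benjamini-Hochberg adjustment over all genes of the region; calls are adjusted p under 0.05. Errors are SE of log2 fold changes, taken as the absolute fold change over the root of F, or SD of CPM. One F test with 4 degrees of freedom covered the interaction of genotype and region, and another the regions of WT mice. The scripts were tested on simulated counts. Alternatives were DESeq2 (1.42.0; the labels name 1.28.1 for the authors), other size factors, no filter, fewer genotypes, covariates (mouse number series, under 100 or over 200; Xist; Ttr) and leaving out libraries. Every library's value is given for members called in 2 or more regions of 1 mutant in the same direction, or called with an absolute log2 fold change of at least 0.5. No 2 libraries of a group agreed within sampling noise. Libraries of 1 mouse carry its number; the median correlation of their deviations from the group means was 0.0196. The members and lists were chosen with earlier results of these data known.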

Additional observations from a re-analysis of the deposited data

Results flagged for a closer look

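Among the members called in a region, 81 groups of 4 libraries were examined for a library far from its group, and 4 held one, where chance alone marks about 1 in 20 groups. All 4 were in cerebellum. Grik1 was highest in WT-221 (33.95 CPM, against 29.8 to 30.1 CPM in the other 3 WT libraries). Grik4 was lowest in 154Q-76 (13.96 CPM, against 15.2 to 15.4 CPM). Grik5 (76.17 CPM, against 71.8 to 72.4 CPM) and Shisa6 (168.3 CPM, against 162 to 163 CPM) were highest in AXH-218 among the AXH libraries.

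The effect of the 154Q genotype differed between regions, by the edgeR interaction test with Benjamini-Hochberg adjustment over all genes, for Gsg1l (adjusted p = 1.23e-06), Grik5 (2.66e-05), Cacng8 (0.000347), Cnih2 (0.0173), Grik2 (0.0196), Gria1 (0.0279), Cacng4 (0.0366), Cnih3 (0.0399) and Cacng3 (0.0408). The effect of the AXH genotype differed between regions for Grik5 (0.00597) and Gsg1l (0.00302) by the same edgeR test. Apart from Gsg1l, Grik5 and Cacng8, the calls in 154Q were lost when 154Q-71 was left out. The Gsg1l call in AXH was lost without AXH-218.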

How the results depend on the processing

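Of 42 called values, 21 kept their call under every alternative; 730 of 848 recomputed values stayed called, 118 missed the threshold and 0 changed sign. DESeq2 and its size factors in edgeR lost 0 of the 42. The mouse number series as a covariate lost 14, Xist 8, only the 2 genotypes compared 8, Ttr 2 and no filter 1. Counts of called members that moved by over 1.5 times were these. DESeq2 called 4 in AXH cerebellum, 1 in AXH brainstem, 8 in AXH hippocampus and 2 in AXH striatum, where its calls over all genes were 1057, 77, 1552 and 611, against 462, 3, 786 and 249 in edgeR. With the number series as a covariate, 5 were called in AXH cerebellum, 1 in 154Q brainstem, 7 in AXH hippocampus and 1 in 154Q striatum (1475, 19, 489 and 234 of all genes). With Xist, 1 was called in 154Q brainstem, 1 in AXH hippocampus and 2 in AXH striatum (92, 548 and 204 of all genes). With only the 2 genotypes compared, 1 was called in 154Q brainstem and 1 in AXH hippocampus (59 and 488 of all genes). Ttr left 2 in AXH hippocampus (379 of all genes), and the library 154Q-76 put back left 0 (279). The main edgeR fits called 117 of all genes in 154Q brainstem and 1047 in 154Q striatum. Without WT-220 and AXH-217, chosen after the data were seen, 7 were called in AXH striatum and 4 in the AXH interaction (937 and 854 of all genes). Without all striatal libraries the AXH interaction had 5 (674 of all genes, against 466 in the main fit).

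Leaving out each library in turn gave 3 to 7 members in 154Q and 1 to 4 in AXH cerebellum, 1 to 2 in 154Q and 0 in AXH brainstem, 2 to 9 and 1 to 5 in hippocampus, 2 to 7 and 1 to 6 in striatum, and 8 to 9 and 7 to 8 in cortex. Counts over all genes in these runs are not given here, and they moved between the runs of the preceding paragraph. These ranges therefore describe the members only, with no background beside them. The lowest counts came without 154Q-69 in cerebellum and hippocampus of 154Q, without 154Q-71 or 154Q-75 in 154Q striatum, without AXH-209 in AXH cerebellum, and without WT-220, WT-221 or AXH-209 in AXH hippocampus; the highest in AXH striatum came without WT-220. Leaving out each mouse gave 3 to 10 interaction calls in 154Q (3 without 154Q-71) and 1 to 4 in AXH (1 without AXH-218). With the replicate block (mouse), 9 members were called in the 154Q interaction, 3 in the AXH interaction and 34 between WT regions. The 34 WT differences held throughout, and AXH against 154Q stayed at 0. Groups of 3 or 4 mice, and 28058359 read pairs in the shallowest striatal library, limit the small effects that can be called.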
